A study of Mus musculus with 6 samples.

Results

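The 34 genes described here encode enzymes and transporters that carry pyruvate and fatty acids into the mitochondrial TCA cycle. They were chosen by symbol, as a set of enzymes of pyruvate entry, the TCA cycle, its cytosolic and glutamate branches, the carnitine shuttle and fatty acid β-oxidation. The symbols were matched to Ensembl identifiers, and all 34 had a row among the 26128 genes of the deposited table. Their levels were measured by RNA sequencing in double negative T (DNT) cells, which are CD3+NK1.1-CD4-CD8- T cells. They were made in vitro by culture of CD4+ T cells of adult wild type C57BL/6 mice (by the methods CD25- cells of spleen and lymph nodes, by the labels spleen) with IL-2 and mature dendritic cells of DBA/2 mice, and were then sorted by flow cytometry. Sorted DNT cells were stimulated through CD3 and CD28 by antibody-coated beads for 48 h, and IL-33 at 50 ng/ml was present in 3 libraries and absent in the other 3 (control). IL-33 is a cytokine of the IL-1 family that acts through the receptor ST2, and the comparison asks which genes differ after the cells have met it. It is not stated whether the 3 libraries within a group derive from different mice or cultures, so p-values measure only the spread between these libraries, which may be technical.

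The TCA cycle oxidizes acetyl-CoA to carbon dioxide in the mitochondrial matrix and hands the electrons to the respiratory chain. Its acetyl-CoA comes from pyruvate, through the mitochondrial pyruvate carrier and the pyruvate dehydrogenase complex, and from fatty acids, which enter the matrix as carnitine esters and are shortened by repeated rounds of dehydrogenation, hydration, a further dehydrogenation and thiolysis. Activated effector T cells are known for their use of glycolysis and glutamine, and memory and regulatory T cells for their use of fatty acid oxidation.

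The 6 libraries held from 20256342 to 22336050 counts, and levels are given as CPM, the counts in 1000000 of the library after TMM scaling, with the SD over n = 3 libraries in each group. A count of 0 would allow a level of up to 0.134 to 0.148 CPM, which is 3 counts and covers counting error only. After a filter on low counts 14671 genes were tested, the 34 among them, with edgeR's quasi-likelihood test and Benjamini-Hochberg adjustment over all 14671. A gene is written to have risen or fallen where its adjusted p was under 0.05. The thresholds of the study also ask for a fold change of at least 1.5, and a gene that meets both is called past both thresholds. All 14 T cell markers listed were detected, from 4.32 CPM for Cd5 to over 1000 CPM for Thy1. Of these, 2 were higher and 4 lower with IL-33, against 13.6% higher and 13.9% lower among all genes tested. The same shares apply to the calls in the marker lists that follow. The label CD8- was not matched by the RNA, since Cd8a stood at 535 to 561 CPM in the control libraries and at 393 to 410 CPM with IL-33. Of the other genes of the sort gate, Cd8b1 stood at 8.12 to 11.4 and 14 to 18.1 CPM, Klrb1c, the NK1.1 gene, at 30.5 to 35.0 and 24.5 to 26.8 CPM, and Cd4 at 0.730 to 1.08 and 0.225 to 0.511 CPM. Of 15 dendritic and myeloid markers 14 had a row in the table, and their summed level was 129 to 134 CPM in control and 110 to 118 CPM in IL-33 libraries, with 2 of 8 tested markers higher and 2 lower. Their largest change was that of Itgax, which fell from 52.2 to 55.8 CPM to 24.7 to 27.8 CPM. Cd74 fell from a mean of 5.66 to 3.78 CPM, while H2-Ab1 rose from 24.8 to 30.3 CPM and Cd68 from 29.4 to 33.6 CPM. Of the 8 tested markers 5 had a positive and 3 a negative log2 fold change, so the lower sum does not describe most of them. Flt3, Lyz2, Csf1r, Adgre1, Fcgr1 and Siglech were below the filter. Of 8 mast cell and basophil markers 7 had a row, and their summed level was 38.6 to 41.8 CPM in control and 27.0 to 31.6 CPM in IL-33 libraries, led by Cma1 and Cpa3, which both fell, while Ms4a2, Fcer1a, Tpsb2 and Prss34 were below the filter. The 4 of 6 B cell markers with a row summed to 5.36 to 5.84 and 5.77 to 6.35 CPM, with neither of the 2 tested called. The NK cell list was led by Gzma, a granzyme that T cells also express. Eomes followed at 372 to 375 CPM in control and 348 to 366 CPM in IL-33 libraries. In all 3 tested NK cell markers every IL-33 library lay below every control library, where 19.5% of all genes tested lay below. Gzma and Klrb1c were called lower, against 13.9% of all genes tested. The log2 fold changes were small for Gzma (-0.04) and Eomes (-0.06), and that of Klrb1c was -0.39. Ncr1 and Klra8 were below the filter. The part of other cells in the results below was not tested, and in these bulk libraries fewer cells of a type and less RNA per cell cannot be told apart.

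The 250 bases before the start site are shown for 7 of the genes, so that the sequence can be read beside the values. Eci1 had the largest rise, Acadvl, Acadl, Acadm and Acads encode the first step of β-oxidation and all rose, Hadhb shares a divergent promoter with Hadha, and Suclg1 was the one gene of the 34 that fell. The sequences are those of RefSeq on GRCm38.p6, where 33 of the 34 genes were matched. They run from 5′ to 3′ on the strand of the gene, and capitals mark a match to one of 6 short motifs, on either strand. The GC box was searched as GGGCGG. The box known by its letters CCAAT was searched as such. The element of estrogen-related receptors was searched as AAGGTCA, the core of the motif of NRF1 as GCATGCGC, the ETS site as CCGGAAGT and the cyclic AMP response element as TGACGTCA. No searched motif contains another, and no match of one overlapped a match of another in the 7 sequences.
Eci1, chr17:24426433-24426682, plus strand: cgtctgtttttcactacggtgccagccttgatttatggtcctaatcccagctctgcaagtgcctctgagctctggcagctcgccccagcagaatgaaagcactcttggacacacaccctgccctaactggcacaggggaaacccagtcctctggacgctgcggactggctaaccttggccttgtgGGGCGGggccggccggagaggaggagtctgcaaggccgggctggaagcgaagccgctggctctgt
Acadvl, chr11:70015429-70015678, minus strand: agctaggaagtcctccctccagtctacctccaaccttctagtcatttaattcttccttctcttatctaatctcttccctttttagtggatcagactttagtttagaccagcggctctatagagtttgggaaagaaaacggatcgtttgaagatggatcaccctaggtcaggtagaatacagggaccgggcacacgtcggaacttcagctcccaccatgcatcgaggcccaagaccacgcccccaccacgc
Acadl, chr1:66863310-66863559, minus strand: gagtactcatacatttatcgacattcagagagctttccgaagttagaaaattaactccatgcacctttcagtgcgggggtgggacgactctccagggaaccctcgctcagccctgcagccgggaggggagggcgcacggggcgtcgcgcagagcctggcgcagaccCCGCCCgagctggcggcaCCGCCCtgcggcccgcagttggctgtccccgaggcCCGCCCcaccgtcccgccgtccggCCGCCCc
Acadm, chr3:153944644-153944893, minus strand: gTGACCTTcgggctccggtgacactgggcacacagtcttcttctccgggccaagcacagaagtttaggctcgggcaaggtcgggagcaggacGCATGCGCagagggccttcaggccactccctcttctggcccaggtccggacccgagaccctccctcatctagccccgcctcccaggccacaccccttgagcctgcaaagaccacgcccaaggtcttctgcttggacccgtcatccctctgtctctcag
Acads, chr5:115119347-115119596, minus strand: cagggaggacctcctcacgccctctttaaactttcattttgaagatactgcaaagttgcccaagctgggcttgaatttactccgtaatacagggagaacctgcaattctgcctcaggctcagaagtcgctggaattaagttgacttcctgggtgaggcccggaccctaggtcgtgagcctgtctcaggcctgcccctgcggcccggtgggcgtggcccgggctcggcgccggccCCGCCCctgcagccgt
Hadhb, chr5:30155003-30155252, plus strand: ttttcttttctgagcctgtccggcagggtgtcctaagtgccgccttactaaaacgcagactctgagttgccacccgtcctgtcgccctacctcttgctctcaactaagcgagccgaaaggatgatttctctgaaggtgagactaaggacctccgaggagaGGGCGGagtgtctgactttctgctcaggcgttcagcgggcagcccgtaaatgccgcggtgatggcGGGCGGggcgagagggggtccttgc
Suclg1, chr6:73248255-73248504, plus strand: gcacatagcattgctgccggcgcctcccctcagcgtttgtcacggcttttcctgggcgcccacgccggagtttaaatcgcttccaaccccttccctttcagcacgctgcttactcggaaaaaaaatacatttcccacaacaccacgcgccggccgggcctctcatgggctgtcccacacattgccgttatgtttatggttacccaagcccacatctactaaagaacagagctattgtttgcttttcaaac

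A GC box stood within 250 bases of the start in 26 of the 33 matched genes (78.8%), against 32.7% of all 32851 promoter windows and 55.7% of the 12798 windows of genes tested here. CCAAT stood in 14 of the 33 (42.4%), against 33.8% and 35.0%. The element of estrogen-related receptors stood only in Acadm among the 33 (3.03%), against 4.08% of all windows and 2.95% of those of tested genes, and it is the match at -249 in the sequence above. The core for NRF1 stood in Acadm and Glud1 (6.06%, against 2.26% and 4.25%), the ETS site in Cpt2 and Slc25a20 (6.06%, against 2.88% and 5.91%), and the cyclic AMP response element in Mdh2 and Ogdh (6.06%, against 1.55% and 2.60%). Acadl held 4 matches to the GC box, Hadhb 2, Eci1 and Acads 1 each, and the windows of Acadvl and Suclg1 held no match to any of the 6 motifs. Such a match describes the letters and is not a measured site. In RefSeq the starts of Hadha (30154980) and Hadhb (30155253) lie 273 bases apart on chromosome 5, on opposite strands. By these starts the Hadhb sequence above spans most of the DNA between them. In the GENCODE M21 annotation, used for the other gene positions, Hadha begins at 30155162 and Hadhb at 30155248. By that annotation part of the sequence lies within Hadha.

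With IL-33, 17 of the 34 genes rose and 1 fell (Suclg1), and 16 were not called. Among all genes tested 13.6% rose and 13.9% fell at the same threshold. Of the 34 genes, 32 had a mean of at least 10 CPM, 17 of them higher and 1 lower, and over the 8839 genes at that level the shares were 18.0% and 19.0%. The changes were small. Apart from Eci1, the genes that rose had log2 fold changes from 0.10 to 0.29, and the median over the 34 was 0.12, beside -0.00063 over all genes tested. The change was positive in 25 genes and negative in 9, against a positive share of 49.9% of all genes. In 19 genes all IL-33 libraries lay above all control libraries, in 1 gene all lay below, and in 14 the groups overlapped, where over all genes 19.4% lay above and 19.5% below. At a mean of at least 10 CPM these shares were 49.6% positive, 23.4% above and 24.5% below. Past both thresholds there was 1 gene, Eci1, against 2.47% of all genes higher and 2.39% lower (1.10% and 1.20% at a mean of at least 10 CPM), and the count was 0 without control replicate 3 or without IL-33 replicate 2. Since the 34 genes were chosen with earlier results of these data known, the list as a whole has no test.

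**Figure D1:**
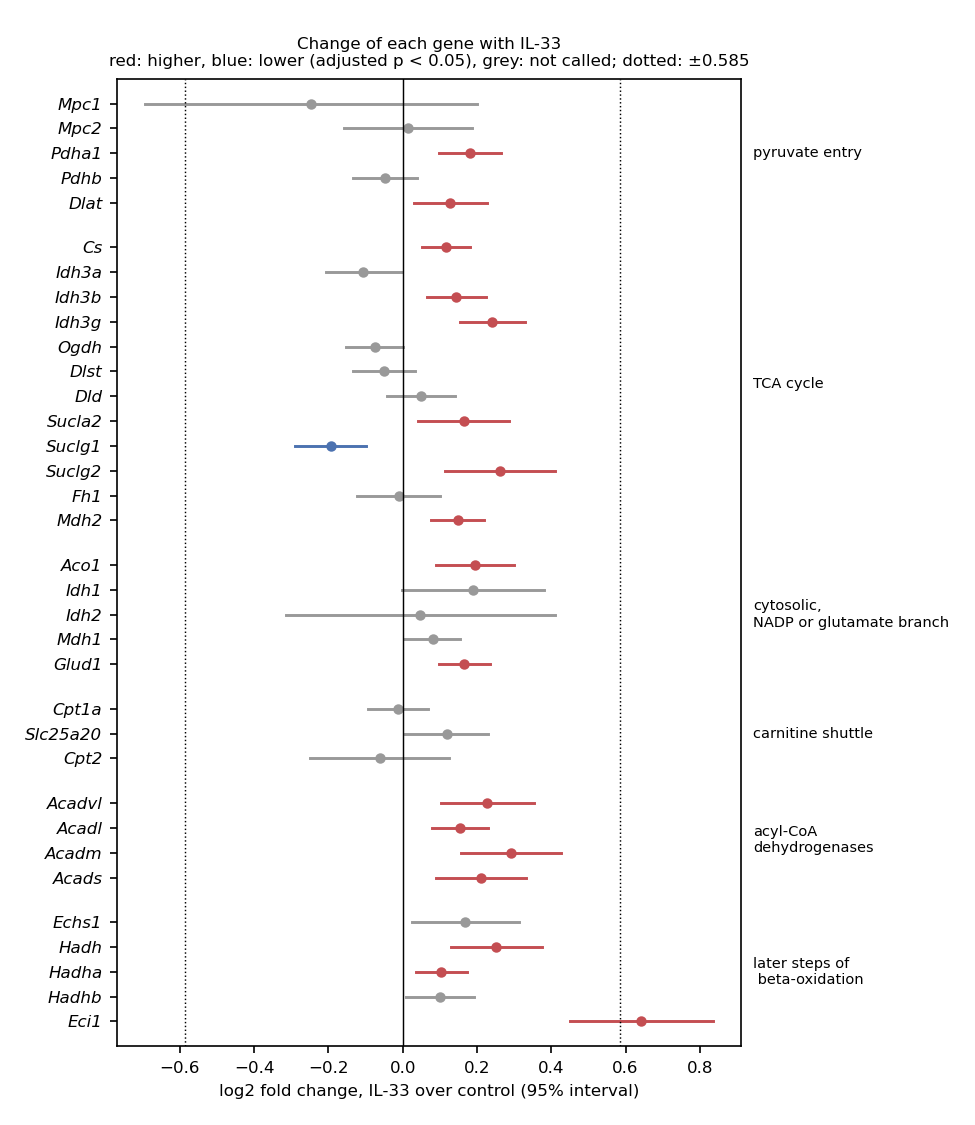
Log2 fold change (IL-33 over control, horizontal axis) of each of the 34 genes with its 95% interval from edgeR, grouped by role. Red points are the 17 genes higher and the blue point the 1 gene lower at adjusted p under 0.05, grey points were not called, and dotted lines mark a fold change of 1.5 in either direction, beyond which only Eci1 at 0.64 lies.

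The 4 genes among the 34 for the first enzymes of β-oxidation all rose. The acyl-CoA dehydrogenases remove hydrogen from fatty acyl-CoA and differ in the chain length that they prefer, and all 4 were called (median log2 fold change 0.22). Acadm, the medium chain enzyme (chromosome 3, 153922357 to 153944632, minus strand), stood at 28.8, 28.5 and 32.3 CPM in the control libraries and at 37.3, 36.3 and 36.0 CPM with IL-33. Every IL-33 library lay above every control library, with a log2 fold change of 0.29 (95% interval 0.16 to 0.43, adjusted p = 0.000345). Acadvl, the very long chain enzyme (chromosome 11, 70010183 to 70015411, minus strand), stood at 35.9, 39.8 and 34.4 CPM and at 44.1, 42.9 and 41.7 CPM. The groups did not overlap, and the log2 fold change was 0.23 (0.10 to 0.35, adjusted p = 0.00316). Of the 2686 exon bases of Acadvl 1151 are shared with Dvl2 on the other strand, and the use of strand in counting is not given in the sources used here. Dvl2, a signal transducer of the Wnt pathway, was at 39.7 CPM in control and 38.9 CPM in IL-33 libraries (log2 fold change -0.03, adjusted p = 0.772). Acads, the short chain enzyme (chromosome 5, 115110299 to 115119346, minus strand), stood at 44.1, 39.2 and 38.2 CPM and at 48.8, 47.6 and 44.3 CPM. Control replicate 1 lay close to IL-33 replicate 3, and the log2 fold change was 0.21 (0.09 to 0.33, adjusted p = 0.00462). Without control replicate 3 it was 0.17, with an adjusted p of 0.0539. Acadl, the long chain enzyme and the most abundant of the 4, rose from 141 ± 0.758 to 157 ± 8.49 CPM, a log2 fold change of 0.15 (adjusted p = 0.000765).

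Of the 5 genes of the later steps 3 rose, and Eci1 among them had the largest change of the 34. Eci1 encodes an enoyl-CoA isomerase of the matrix, which moves the double bond of unsaturated fatty acids so that β-oxidation can proceed (chromosome 17, 24426641 to 24439348, plus strand). It stood at 13.4, 14.3 and 12.2 CPM in control and at 19.3, 23.5 and 19.5 CPM in IL-33 libraries. The groups lay well apart, IL-33 replicate 2 was the highest, and the level was 56.0% higher with IL-33 (log2 fold change 0.64, 95% interval 0.45 to 0.83, adjusted p = 3.74e-08). The log2 fold change was 0.58 without control replicate 3 and 0.55 without IL-33 replicate 2, both just under the fold change threshold, with adjusted p of 4.84e-06 and 1.99e-05. Hadh, a hydroxyacyl-CoA dehydrogenase for shorter chains (chromosome 3, 131233419 to 131272101, minus strand), stood at 37.2, 38.0 and 36.7 CPM and at 44.8, 43.8 and 44.6 CPM. The lowest IL-33 library lay well above the highest control library (log2 fold change 0.25, 95% interval 0.13 to 0.37, adjusted p = 0.000603).

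Hadha and Hadhb encode the alpha and beta subunits of the mitochondrial trifunctional protein, which carries out the last steps on long chains. Hadha rose from 186 ± 1.3 to 200 ± 3.19 CPM, a log2 fold change of 0.10 (adjusted p = 0.0145), and its adjusted p was 0.0579 without control replicate 2 and 0.0610 without IL-33 replicate 1. Hadhb had almost the same change, from 69.0 ± 2.17 to 74.0 ± 2.61 CPM, a log2 fold change of 0.10 with an adjusted p of 0.0920, and was not called although its groups did not overlap. The processed pseudogene Gm13910 matches 1428 bases of Hadhb at 99.8% identity and was itself counted at 534 to 650 reads per library, so reads of the pair may have been split and the level of Hadhb is uncertain. Echs1, the short chain enoyl-CoA hydratase, was at 31.8 ± 4.02 and 35.7 ± 2.68 CPM (log2 fold change 0.17, adjusted p = 0.0714). Control replicate 2 of Echs1 stood at 36.4 CPM, among the IL-33 libraries, and without it the adjusted p was 0.00464. Echs1 shares 142 exon bases with Paox on the other strand, a gene that rose (log2 fold change 0.40, adjusted p = 0.00313).

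None of the 3 genes of the carnitine shuttle was called. Cpt1a, which makes acylcarnitine at the outer membrane and is the regulated step of fatty acid entry, was at 113 ± 5.39 and 112 ± 2.88 CPM, with a 95% interval of the log2 fold change from -0.09 to 0.07 and an adjusted p of 0.854. Cpt2, which restores acyl-CoA in the matrix, was at 17.5 ± 1.39 and 16.8 ± 0.859 CPM (interval -0.25 to 0.13, adjusted p = 0.679). Slc25a20, the carnitine and acylcarnitine carrier of the inner membrane, was at 47.2 ± 2.17 and 51.3 ± 1.26 CPM, with all IL-33 libraries above all controls and an adjusted p of 0.108 (log2 fold change 0.12, interval 0.01 to 0.23). Whether the carnitine shuttle differs in its change from the acyl-CoA dehydrogenases was not tested.

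**Figure D2:**
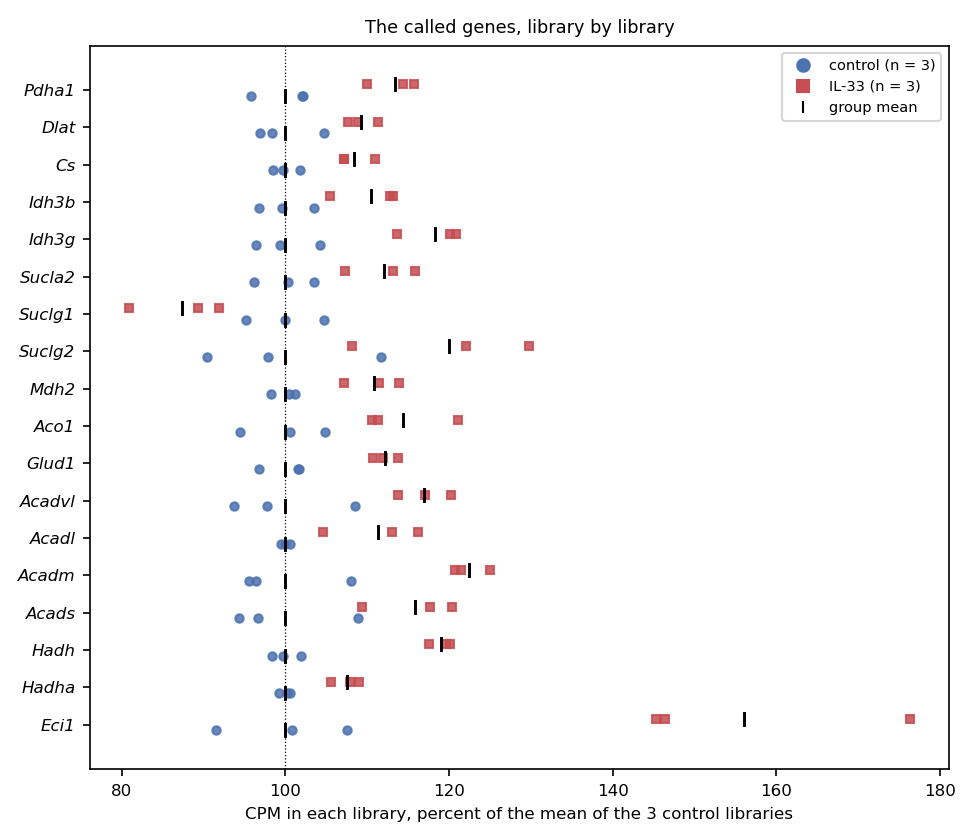
Level of each of the 18 called genes in each library, as a percentage of the mean of the 3 control libraries (horizontal axis), with control and IL-33 libraries in different colours and group means as bars. The groups are apart in every called gene except Suclg2, Suclg1 alone lies to the left of its controls, and Eci1 lies farthest to the right.

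At the entry of pyruvate 2 of 5 genes rose. Pdha1, the alpha subunit of the pyruvate dehydrogenase component of the complex, rose from 84.1 ± 3.05 to 95.4 ± 2.52 CPM (log2 fold change 0.18, 95% interval 0.10 to 0.27, adjusted p = 0.000356). Pdhb, the beta subunit of the same enzyme, was at 81.9 ± 3.25 and 79.2 ± 3.11 CPM (interval -0.13 to 0.04, adjusted p = 0.453). Dlat, the acetyltransferase core of the complex, rose from 59.9 ± 2.49 to 65.4 ± 1.15 CPM, a log2 fold change of 0.13 with an adjusted p of 0.0425, close to the threshold. Its adjusted p lay between 0.0203 and 0.156 over the alternative fits, and it was over 0.05 in 9 of 12, of which DESeq2 gave 0.119. The carrier subunits were low. Mpc2 was at 20 ± 1.28 and 20.2 ± 1.37 CPM (log2 fold change 0.01, adjusted p = 0.929) and Mpc1 at 2.92 ± 0.452 and 2.46 ± 0.369 CPM (log2 fold change -0.25, interval -0.69 to 0.20, adjusted p = 0.462). The pseudogene Mpc1-ps matches 261 bases of Mpc1 at 100% identity and was counted at 218 to 311 reads per library, against 344 for Mpc1 over all 6 libraries together, so the level of Mpc1 is uncertain.

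Of the 12 enzymes of the TCA cycle itself 6 rose, 1 fell and 5 were not called. Cs, citrate synthase, which joins acetyl-CoA to oxaloacetate, rose from 234 ± 4 to 254 ± 5.13 CPM (log2 fold change 0.12, adjusted p = 0.00327). Mdh2, the mitochondrial malate dehydrogenase that closes the cycle, rose from 162 ± 2.45 to 180 ± 5.53 CPM (log2 fold change 0.15, adjusted p = 0.000592). Fh1, fumarase, stood at 49.5 ± 0.276 and 49.1 ± 2.33 CPM and was not called (adjusted p = 0.920).

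Of the 3 subunits of the NAD-dependent isocitrate dehydrogenase 2 rose and 1 was not called. Idh3g, a regulatory subunit (X chromosome, 73778963 to 73786897, minus strand), stood at 71.2, 69.0 and 74.7 CPM in control and at 81.4, 86.1 and 86.6 CPM in IL-33 libraries. The groups did not overlap, and the log2 fold change was 0.24 (95% interval 0.15 to 0.33, adjusted p = 3.81e-06). Idh3b, which forms part of the same enzyme, rose from 109 ± 3.74 to 121 ± 4.75 CPM (log2 fold change 0.14, adjusted p = 0.00329). Idh3a, the catalytic subunit, was at 62.3, 61.7 and 60.1 CPM and at 60.3, 56.5 and 54.4 CPM. These values overlap, and the change was not called (log2 fold change -0.11, adjusted p = 0.119).

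The succinyl-CoA synthetase, which makes ATP or GTP as it releases succinate, had subunits that moved in both directions. Suclg1, the alpha subunit common to both forms (chromosome 6, 73248382 to 73276911, plus strand), fell from 73.5 ± 3.5 to 64.3 ± 4.24 CPM. Every IL-33 library (67.6, 59.5 and 65.7 CPM) lay below every control library (77.0, 73.6 and 70 CPM), with a log2 fold change of -0.19 (95% interval -0.29 to -0.10, adjusted p = 0.000913). Suclg2, the beta subunit of the form that uses GDP (chromosome 6, 95473009 to 95718800, minus strand), stood at 30.2, 24.5 and 26.5 CPM and at 35.2, 29.3 and 33.1 CPM. Control replicate 1 lay above IL-33 replicate 2, so the groups overlap. The log2 fold change was 0.26 (0.12 to 0.41, adjusted p = 0.00396), and the adjusted p was 0.0745 without control replicate 2 and 0.0709 without IL-33 replicate 1. Sucla2, the beta subunit of the form that uses ADP, rose from 37.8 ± 1.37 to 42.4 ± 1.67 CPM (log2 fold change 0.16, adjusted p = 0.0376). Its adjusted p was 0.0995 with DESeq2 and between 0.0756 and 0.152 when control replicate 2 or 3 or IL-33 replicate 1 or 2 was left out.

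The oxoglutarate dehydrogenase complex was not called in any of its 3 genes. Ogdh, the first component, was at 155 ± 6.61 and 147 ± 7 CPM (log2 fold change -0.08, adjusted p = 0.139). Dlst, the succinyltransferase core, was at 98.7 ± 2.72 and 95.4 ± 3.23 CPM (adjusted p = 0.407), and Dld, a component that this complex shares with pyruvate dehydrogenase, at 70.5 ± 2.34 and 73.0 ± 3.22 CPM (adjusted p = 0.460).

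Of the 5 genes of the cytosolic, NADP and glutamate branches 2 rose. Glud1, which turns glutamate into oxoglutarate, rose from 182 ± 5.02 to 204 ± 2.79 CPM (log2 fold change 0.17, 95% interval 0.10 to 0.23, adjusted p = 6.60e-05). Aco1, the cytosolic aconitase, which also serves as an iron-responsive RNA-binding protein, rose from 53.5 ± 2.79 to 61.2 ± 3.11 CPM (log2 fold change 0.19, adjusted p = 0.00247). Mdh1, the cytosolic malate dehydrogenase of the malate-aspartate shuttle, was at 154 ± 8.25 and 163 ± 4.52 CPM (log2 fold change 0.08, adjusted p = 0.104). Idh1, which makes NADPH in the cytosol, was at 15.7 ± 1.22 and 17.9 ± 1.72 CPM, with all IL-33 libraries above all controls and an adjusted p of 0.139 (log2 fold change 0.19). Idh2, its mitochondrial counterpart, was at 3.98 ± 0.482 and 4.10 ± 0.608 CPM (adjusted p = 0.881).

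Summed over genes, the 12 fatty acid oxidation genes stood at 753 to 771 CPM in control and at 821 to 852 CPM in IL-33 libraries, 9.83% more on the group means. The 22 genes of pyruvate entry, the TCA cycle and its branches stood at 1781 to 1832 and at 1898 to 1926 CPM, 5.74% more. The sums of neither set overlapped between the groups, and abundant genes weigh most in such sums. Over all single genes tested 38.9% did not overlap, and no such share was taken over other sums. Within fatty acid oxidation 7 of 12 genes rose and none fell (median log2 fold change 0.16), and in the other set 10 of 22 rose and 1 fell, with a median of 0.099. The difference between the sets was not tested.

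**Figure D3:**
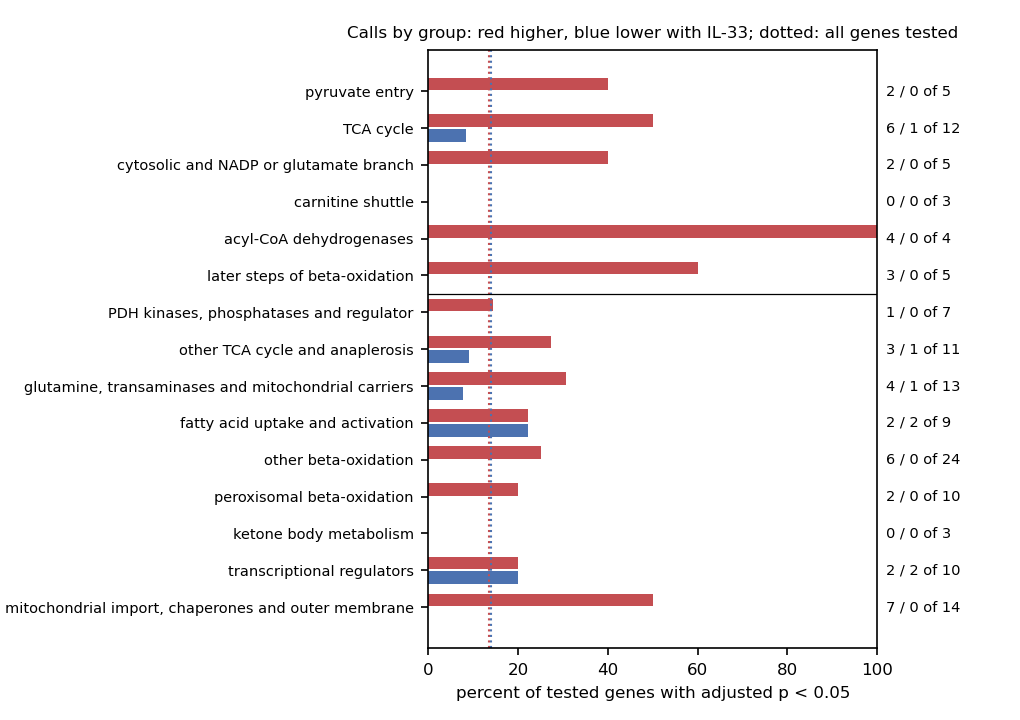
Percentage of the tested genes of each group with an adjusted p under 0.05 (horizontal axis), higher with IL-33 in red and lower in blue, for the 6 groups of the 34 genes and for the lists of other genes used for context. Dotted lines mark the shares over all 14671 genes tested, 13.6% higher and 13.9% lower, and the acyl-CoA dehydrogenases, with 4 of 4 higher, stand at one end and the carnitine shuttle and the genes of ketone body metabolism, each with 0 of 3 called, at the other.

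Ratios of paired genes within a library do not depend on the scaling between libraries. Of 11 ratios, 3 did not overlap between the groups, and all 3 were higher with IL-33. Over all single genes tested 38.9% did not overlap, and no such share was taken over other ratios. Idh3g over Idh3a, in counts per kilobase of exon, was 2.14, 2.10 and 2.33 in control and 2.54, 2.86 and 2.99 in IL-33 libraries, a difference of 0.35 on the log2 scale. Idh3b over Idh3a was 2.59, 2.54 and 2.79 in control and 2.84, 3.25 and 3.36 in IL-33 libraries (0.25). Pdha1 over Pdhb was 1.01, 1.05 and 1.13 in control and 1.25, 1.23 and 1.26 in IL-33 libraries (0.23). In each of these ratios the numerator is a gene that rose and the denominator a subunit of the same enzyme that was not called. Each had an exact two-sided permutation p of 0.1, the smallest that 3 libraries against 3 can give, and 0.367 after adjustment over the 11 ratios, so this test could not reach 0.05 here. The other 8 ratios overlapped, with adjusted p from 0.550 to 0.900 in the same exact permutation test. Among them Hadha over Hadhb was 2.04 ± 0.0767 and 2.05 ± 0.0489, Mdh2 over Mdh1 was 0.761 ± 0.0465 and 0.797 ± 0.0463, and Cpt1a over Cpt2 was 2.02 ± 0.224 and 2.09 ± 0.0844. The ratio of Hadha over Hadhb is uncertain, since reads of Hadhb may have been split with its copy Gm13910. With the length of the longest transcript in place of all exons, the control ratio of Mdh2 over Mdh1 was 1.39, that of Cpt1a over Cpt2 was 3.56 and that of Idh3g over Idh3a 1.45, so the ratios themselves depend on the length used, while their change between groups does not.

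**Figure D4:**
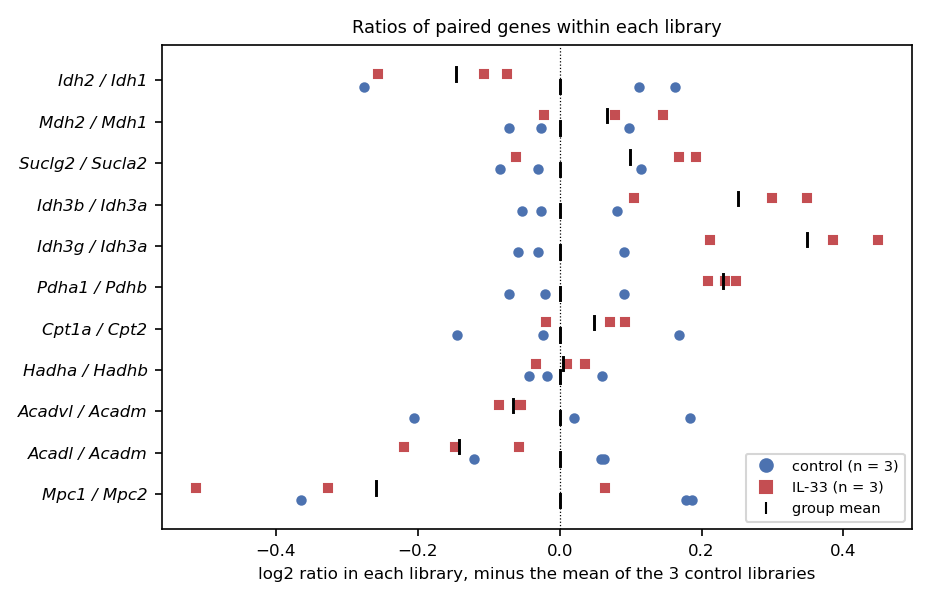
Log2 ratio of 11 pairs of genes in each library, minus the mean of the 3 control libraries (horizontal axis), with group means as bars. The IL-33 libraries lie to the right of all controls for Idh3g / Idh3a, Idh3b / Idh3a and Pdha1 / Pdhb, and overlap the controls in the other 8 ratios.

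Per kilobase of the longest transcript, the levels of the 34 genes in control libraries ran from 2.22 CPM for Idh2 to 101 CPM for Mdh2. Mdh2 was followed by Cs (78.0), Acadl (73.8), Mdh1 (72.5), Glud1 (53.6) and Idh3b (53.4). The lowest after Idh2 were Mpc1 (3.04), Mpc2 (4.99), Idh1 (6.82) and Cpt2 (7.38). The same 2 genes, Mdh2 and Idh2, were highest and lowest by this measure in IL-33 libraries, at 112 and 2.29 CPM per kilobase. The order depends on the length, since over all annotated exons Acadl (70.5) and Mdh1 (60.0) stood above Mdh2 (45.5), and Mpc1 (1.4) stood below Idh2 (1.54). Among the acyl-CoA dehydrogenases Acadl was highest, with 73.8 CPM per kilobase of the longest transcript against 20 for Acads, 16.9 for Acadvl and 14.6 for Acadm, and it was highest over all exons as well. Eci1, with 11.7 CPM per kilobase in control and 18.3 with IL-33, was near Hadh (9.94 and 11.8) and above Echs1 (7.77 and 8.73) by this length, while over all exons Eci1 (6.26) was below Hadh (7.49) in control.

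**Figure D5:**
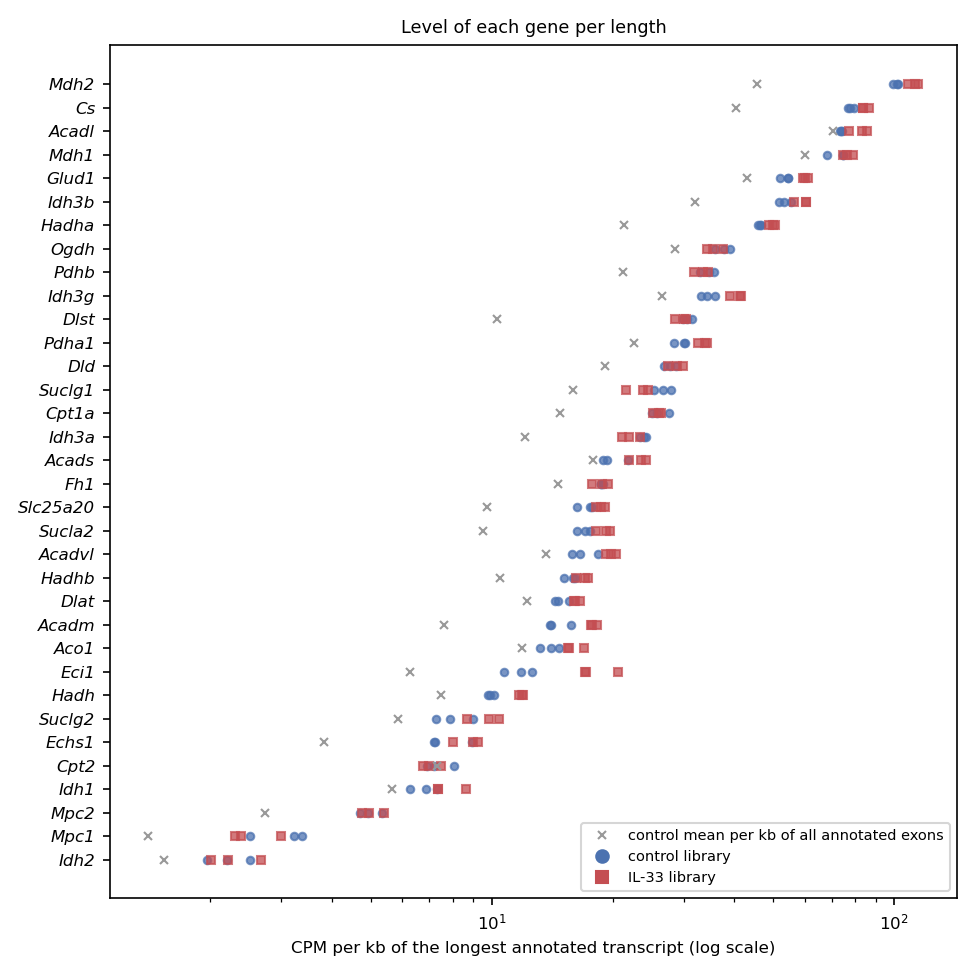
Level of each of the 34 genes in CPM per kilobase of the longest annotated transcript (horizontal log axis), with 1 point for each control and IL-33 library, ordered by the control level, and crosses at the control mean per kilobase of all annotated exons. Mdh2 (101 in control) and Idh2 (2.22) are the ends of the order, and the gap between control and IL-33 libraries is widest for Eci1.

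A further 113 genes were listed for context, and 101 were tested. They belong to the same pathways, with carriers and regulators, and also to mitochondrial protein import, chaperones and the outer membrane. Of the 101, 27 rose and 6 fell, again against 13.6% and 13.9% of all genes, and the median of their log2 fold changes was 0.095. The 27 include 7 of the 14 genes of import, chaperones and the outer membrane, which are described again under the other observations. Of the 101, 3 were past both thresholds, Me1, Gls2 and Ogdhl. Me1, the cytosolic malic enzyme, which turns malate into pyruvate and makes NADPH, stood at 12.1, 11.3 and 10.8 CPM in control and at 25.5, 21.4 and 22.6 CPM in IL-33 libraries. Its level was higher in all IL-33 libraries, with a log2 fold change of 1.03 (95% interval 0.84 to 1.22, adjusted p = 2.74e-16). Gls2, a glutaminase, stood at 1.74, 1.03 and 1.41 CPM and at 2.23, 2.05 and 2.88 CPM (log2 fold change 0.77, interval 0.23 to 1.31, adjusted p = 0.0232). Its adjusted p was 0.0926 with DESeq2, 0.138 without control replicate 2 and 0.151 without IL-33 replicate 3. Ogdhl, a paralog of Ogdh, stood at 2.21, 1.77 and 1.32 CPM and at 1.12, 0.715 and 0.405 CPM (log2 fold change -1.24, interval -1.94 to -0.55, adjusted p = 0.00372). It is low in all libraries, and Ogdh itself was not called.

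Around pyruvate and the cycle, Pdk1, a kinase that inhibits pyruvate dehydrogenase, rose from 113 ± 6.43 to 149 ± 8.04 CPM (log2 fold change 0.40, adjusted p = 1.91e-13). It was the 1 gene called of 7 tested that encode kinases, phosphatases and their regulator or a binding component of that complex. That count is near the 13.6% of all genes tested that rose. Pcx, pyruvate carboxylase, which refills oxaloacetate, rose from 5.70 ± 0.763 to 7.52 ± 0.477 CPM (log2 fold change 0.40, adjusted p = 0.0320). Of 11 other genes of the cycle and its refilling 3 rose and 1 fell, against 13.6% and 13.9% of all genes tested. Of the succinate dehydrogenase genes, which are outside the 34, Sdhd rose (log2 fold change 0.13, adjusted p = 0.0112) while Sdha, Sdhb and Sdhc were not called. Sdhd was named after its values had been seen. Of 13 genes of glutamine use, transaminases and carriers 4 rose and 1 fell, against the same shares of all genes. The one that fell was Slc25a10, the dicarboxylate carrier, from 14.7 ± 0.962 to 10.8 ± 0.973 CPM (log2 fold change -0.44, adjusted p = 0.000866).

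Of 9 tested genes of fatty acid uptake and activation 2 were higher and 2 lower, shares near those over all genes. Fabp5, a fatty acid binding protein, rose from 11.6 ± 1.55 to 15.5 ± 1.85 CPM (log2 fold change 0.42, adjusted p = 0.00181). Acsl1, a long chain acyl-CoA synthetase, fell from 7.13 ± 0.605 to 5.41 ± 0.282 CPM (log2 fold change -0.40, adjusted p = 0.0357). Its paralogs Acsl4 and Acsl5, named after their values had been seen, went apart, with log2 fold changes of 0.16 (adjusted p = 0.000557) and -0.13 (adjusted p = 0.00555). Of 24 other tested genes, of β-oxidation, malonyl-CoA turnover and the breakdown of propionate and branched chain amino acids, 6 rose and none fell. Among all genes tested 13.6% rose and 13.9% fell. Acadsb, a dehydrogenase of short branched chains, rose from 36.4 ± 0.835 to 47.5 ± 2.54 CPM (log2 fold change 0.39, adjusted p = 1.48e-07). Eci2, a second enoyl-CoA isomerase, rose from 27.3 ± 2.83 to 32.9 ± 1.65 CPM, a log2 fold change of 0.27 (adjusted p = 0.00233), beside 0.64 for Eci1. Pcca, a subunit of propionyl-CoA carboxylase, and Acad11, an acyl-CoA dehydrogenase, rose by 0.35 and 0.28 on the log2 scale (adjusted p = 0.0115 and 0.0469). Acad8, Acad9 and Acad10, of the same family as Acad11, were not called (adjusted p = 0.345, 0.0530 and 0.883). Acaa2, the matrix thiolase, was at 45.3 and 46.7 CPM and was not called (adjusted p = 0.603).

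Of 10 tested regulators of transcription 2 rose and 2 fell, against 13.6% and 13.9% of all genes tested. Ppard, a nuclear receptor that binds fatty acids, rose from 36.3 ± 2.09 to 45.5 ± 2.55 CPM (log2 fold change 0.33, adjusted p = 1.18e-05). Foxo1, a factor of T cell quiescence that insulin and growth factor signals inhibit, rose from 71.7 ± 0.912 to 92.3 ± 3.00 CPM (log2 fold change 0.36, adjusted p = 6.53e-12). The lower ones, named after their values had been seen, were Pprc1, a coactivator of nuclear genes for mitochondrial proteins, and Nrf1, with log2 fold changes of -0.26 and -0.20 (adjusted p = 0.000412 and 0.00571). Esrra, which encodes an estrogen-related receptor, was at 43.5 and 42.3 CPM and was not called (adjusted p = 0.659), and Ppargc1a was below the filter.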

How the data were processed

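For 6 libraries of mouse DNT cells, the table that the authors deposited gives raw counts per gene, not normalized. They also deposited 1 column of signal, the mean over all libraries of counts divided by size factors, and columns of their own comparison, and neither was used. The submitters' processing notes name Bowtie 0.12.2 and the build mm8. Neither the counting program nor the use of strand is given in the sources used here. For the library kit the labels name TruSeq and the methods NEBNext Ultra. Positions, lengths and overlaps come from GENCODE M21 (GRCm38), matched by Ensembl identifier (26086 of 26128 genes), which is not the build of those notes, and similar transcripts were found by blastn (at least 95% identity over 200 bases).

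Groups follow the labels. Genes were filtered (filterByExpr, minimum count of 10, minimum total of 15, which removed 0.110% of counts) and tested two-sided with edgeR 4.0.16 in R 4.3.3 (TMM, robust quasi-likelihood, no covariates). The biological coefficient of variation was 0.0468. Alternatives were DESeq2 1.42.0, limma-voom (limma 3.58.1), DESeq2 size factors, no filter, a stricter filter (1 CPM in every library of a group), the replicate number as a block, and each library left out in turn. The fits were tested on simulated data. Sampling noise alone did not account for the differences between replicates (chi-square per gene 2.64 to 3.67).

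The 34 genes and all lists were chosen with earlier results of these data known. Values in every library are given for genes of the 34 with an adjusted p under 0.05 and an absolute log2 fold change of at least 0.2. Of the genes listed for context, those past both thresholds and the next 12 by size of change among called genes with a mean of at least 1 CPM are named. Further genes are named to complete a pathway step or a small count, and some genes of the lists are not reported here.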

Additional observations from a re-analysis of the deposited data

How the results depend on the processing

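Of the 18 called genes 13 were called in all 12 alternatives, and 29 of the 34 kept their direction. The number higher was 15 with DESeq2, 16 with limma-voom, without a filter and with the replicate block, 17 with the other size factors and the stricter filter, and 13 to 17 with a library left out. The number lower was 1 in each. Of the genes listed for context 18 rose with DESeq2, in place of 27. The number past both thresholds was 0 to 1 with a library left out. Pairing of the libraries by replicate number is not stated in the sources used here, and weak correlations cannot exclude it. Same-numbered libraries correlated at 0.0032 to 0.0116 in their deviations from the group means, although each library correlated best with its own number. The replicate block called 3798 genes in place of 4036 and lost 1 of the 18, Dlat. Reversals came only with a library left out, in genes and ratios that were not called. Log2 fold changes then ran from -0.039 to 0.065 for Mpc2, -0.074 to 0.14 for Idh2, -0.039 to 0.028 for Fh1, -0.041 to 0.026 for Cpt1a and -0.11 to 0.0041 for Cpt2. Changes of log2 ratios ran from -0.025 to 0.13 for Cpt1a over Cpt2, -0.017 to 0.034 for Hadha over Hadhb and -0.17 to 0.027 for Acadvl over Acadm. The cause of these changes was not tested. Depth limits Mpc1 most, with 344 counts in all libraries together.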

Other observations

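The 14 genes of mitochondrial protein import, matrix chaperones and the outer membrane are part of the 113 listed for context. Of these 14 genes 7 were higher with IL-33 and none lower at an adjusted p under 0.05 in edgeR. Among all genes tested 13.6% were higher and 13.9% lower. The median log2 fold change of the 14 was 0.071. Hspe1, which encodes the small partner of the matrix chaperonin, rose by 0.37 on the log2 scale (adjusted p = 5.61e-11), with 68.1 ± 4.87 CPM in control and 87.8 ± 3.18 CPM in IL-33 libraries (SD, n = 3). Its partner Hspd1 rose by 0.16 on the log2 scale (adjusted p = 0.000392), from 132 ± 3.78 to 148 ± 5.34 CPM. The voltage-dependent channels Vdac1, Vdac2 and Vdac3 had log2 fold changes of 0.11, 0.11 and 0.13, with adjusted p of 0.0247, 0.0200 and 0.0261. Tomm20, Tomm22, Tomm40, Timm23, Phb and Phb2 were not called, and Tomm20 had a log2 fold change of -0.09 (adjusted p = 0.0704).

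Of 10 tested genes of peroxisomal β-oxidation 2 rose and none fell, against 13.6% and 13.9% of all genes tested. Acox3, an acyl-CoA oxidase, and Ech1, a dienoyl-CoA isomerase, both rose by 0.19 on the log2 scale (adjusted p = 0.000878 and 4.02e-05). None of 3 tested genes of ketone body metabolism was called at an adjusted p under 0.05, and their log2 fold changes in edgeR ran from -0.03 to 0.16. Apart from Hspe1, the genes named here were chosen after their values had been seen.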
